A study of Mus musculus with 32 samples.

Results

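Nrf2 is the transcription factor that switches on genes against oxidants and reactive electrophiles. It is described here through 10 genes in mouse kidney after cisplatin: its own gene Nfe2l2, the gene of its inhibitor Keap1, and 8 genes known as its targets (Hmox1, Nqo1, Gclc, Gclm, Srxn1, Txnrd1, Slc7a11 and Osgin1). The genes were chosen by symbol, with earlier results of these data known, and each was read from the brightest probe whose transcript accession belongs to that symbol. All 10 were on the array, among 20659 genes that could be named, and all 10 were among the 16455 named genes that passed the filter on dim probes. Hmox1 had 2 probes and each other gene had 1.

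Whole kidneys of male mice aged 12-16 weeks were hybridised to 1-colour Agilent 4x44k arrays, 1 animal per array, and RNA was taken from ground whole tissue. The 32 arrays form 8 groups of 4: wild type C57BL/6 and miR-155-/- (B6.Cg-Mir155tm1.1Rsky/J) mice, given saline (the 0 h group) or sampled 24, 48 or 72 h after a single dose of 20 mg/kg cisplatin. The saline animals were all labelled 0 h, so the effect of cisplatin and that of time since injection cannot be told apart. Cisplatin is a platinum drug that binds DNA and thiols and is toxic to kidney tubule cells. The miR-155-/- line lacks the microRNA in every cell of the body, the wild type mice came from another supplier, so that genotype and source cannot be told apart, and no probe on the array was named for miR-155 or its host transcript, so the deletion could not be checked in these data.

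Keap1 normally holds Nrf2 in the cytoplasm and marks it for destruction. Oxidants, electrophiles and heavy metals modify cysteines of Keap1, Nrf2 then accumulates, enters the nucleus with a small Maf partner and binds antioxidant response elements. Its targets make and recharge glutathione and thioredoxin, degrade haem and reduce quinones, and in the kidney the pathway is known for its part in the response to toxic and ischaemic injury.

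RefSeq (GRCm38.p6) gave a promoter window, the 250 bases before a transcript start, for 8 of the 10 genes. They are printed because these genes share a regulator, so that a reader can see where the core of the antioxidant response element stands. Capitals mark the core, searched as TGACNNNGC or TGAGNNNGC on both strands. Txnrd1 had 3 windows and the other genes 1 each. The core was found in 6 of these 10 windows, 1 each of Gclm, Nfe2l2, Osgin1, Slc7a11, Srxn1 and Txnrd1, and in 23.0% of all 32851 windows of that length. Windows of 4 genes that hold the core and the window of Nqo1, which holds none, are given 5′ to 3′ on the strand of the gene.
Nfe2l2, chr2:75704664-75704913, minus strand: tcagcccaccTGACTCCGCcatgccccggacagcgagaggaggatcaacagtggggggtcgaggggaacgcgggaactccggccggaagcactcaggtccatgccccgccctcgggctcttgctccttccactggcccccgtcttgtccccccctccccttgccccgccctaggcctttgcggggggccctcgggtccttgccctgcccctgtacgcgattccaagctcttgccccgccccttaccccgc
Srxn1, chr2:152105274-152105523, plus strand: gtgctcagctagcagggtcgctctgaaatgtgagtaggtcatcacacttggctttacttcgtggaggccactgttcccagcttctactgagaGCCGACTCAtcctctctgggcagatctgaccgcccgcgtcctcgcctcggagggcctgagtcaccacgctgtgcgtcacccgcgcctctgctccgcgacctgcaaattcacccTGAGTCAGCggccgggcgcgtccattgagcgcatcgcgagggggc
Gclm, chr3:122245307-122245556, plus strand: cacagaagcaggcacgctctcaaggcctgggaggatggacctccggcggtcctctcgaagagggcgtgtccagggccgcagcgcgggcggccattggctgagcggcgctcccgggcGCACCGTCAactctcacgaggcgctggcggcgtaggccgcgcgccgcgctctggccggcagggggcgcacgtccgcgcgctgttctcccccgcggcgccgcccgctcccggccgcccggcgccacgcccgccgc
Osgin1, chr8:119436897-119437146, plus strand: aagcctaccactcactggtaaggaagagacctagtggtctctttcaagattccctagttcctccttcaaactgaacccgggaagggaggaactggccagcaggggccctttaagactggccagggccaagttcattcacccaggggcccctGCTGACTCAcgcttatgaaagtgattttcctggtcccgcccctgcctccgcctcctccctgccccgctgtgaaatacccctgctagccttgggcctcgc
Nqo1, chr8:107403206-107403455, minus strand: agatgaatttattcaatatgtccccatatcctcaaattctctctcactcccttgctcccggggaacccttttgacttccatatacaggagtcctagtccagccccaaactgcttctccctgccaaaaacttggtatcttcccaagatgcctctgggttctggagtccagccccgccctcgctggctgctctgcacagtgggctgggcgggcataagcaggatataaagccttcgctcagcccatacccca

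The Srxn1 window held the core at 158 to 150 bases and again at 45 to 37 bases before the start, the first on the opposite strand. The Osgin1 core stood 99 to 91 bases before the start and that of Gclm 134 to 126, each on the opposite strand, and that of Nfe2l2 240 to 232. The AP-1 motif, TGACTCA or TGAGTCA, was in the windows of Srxn1 and Osgin1 and in 4.46% of all windows, and 1 AP-1 match in each of these windows overlaps an antioxidant core. A match is a description of letters, not of binding, and the Nqo1 window says nothing of elements further away. The microRNA that the mutant mice lack is given with its seed, bases 2 to 8, in capitals.
mmu-miR-155-5p: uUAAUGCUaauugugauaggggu

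Levels are given throughout as the log2 of the processed signal minus the 75th percentile of the same array, so that 0 is that percentile. A gene was called at a Benjamini-Hochberg adjusted p under 0.05 in limma. The arrays held kidney tissue in every group, and the tissue's own genes were changed after the drug. All 10 kidney tubule markers were well above background on all 4 arrays of each group, and 10, 5 and 5 of them fell in wild type and 9, 9 and 8 in miR-155-/- kidney at 24, 48 and 72 h. In whole tissue, fewer cells of a type and less RNA per cell cannot be told apart. Of 10 macrophage markers tested none rose and 3, 3 and 7 fell in wild type and 4, 5 and 3 in miR-155-/- kidney (Cd163 was above background on no array of 7 of the 8 groups), and of 6 neutrophil markers 3 rose at each time in miR-155-/- kidney and none in wild type. Over all genes tested 17.6, 11.6 and 12.8% fell in wild type and 22.5, 21.1 and 17.5% in miR-155-/- kidney at these times. The shares that rose were 21.0, 12.2 and 12.5% in wild type and 26.6, 22.7 and 17.7% in miR-155-/- kidney. With so few markers, a count such as 3 of 10 is not far from these shares. The mean level of the macrophage list was -1.77 to -1.18 on the wild type saline arrays and -3.04 to -1.85 on the wild type 24 and 72 h arrays, and that of the neutrophil list -5.68 to -5.08 on the miR-155-/- saline arrays and -4.36 to -2.81 at 72 h. On the wild type arrays the neutrophil list read -4.89 to -3.25 with saline and -4.77 to -3.98 at 72 h. The miR-155-/- saline arrays thus lay below the wild type saline arrays, and the rise in miR-155-/- kidney started from that lower level. The part of these cells in the members' values was not tested.

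In kidneys without miR-155 3 arrays were set against the 3 fellows of their group for these genes. For each gene some array of a group is the highest and some the lowest, so such a count alone does not set an array apart. The other arrays were not counted in this way. Replicate 3 of the 48 h group was above its 3 fellows for 6 members (Hmox1, Srxn1, Txnrd1, Slc7a11, Osgin1 and Keap1) and below them for 2 (Gclc and Nfe2l2). Replicate 3 of the 24 h group was above for 3 (Hmox1, Slc7a11 and Osgin1) and below for 3 (Nqo1, Gclc and Keap1). Replicate 4 of the 24 h group was above for 5 (Nqo1, Gclc, Srxn1, Txnrd1 and Nfe2l2) and within the range of its fellows for 5, which does not set it apart. For Srxn1 the 48 h array read 7.33 where the others read 5.43 to 5.46, and for Gclc 3.23 where they read 4.17 to 4.24. Marker genes moved on the 48 h array: the mean level of 10 kidney tubule genes was 3.01 (other arrays 4.08 to 4.33), of 11 macrophage genes -3.64 (-2.14 to -2.12), of 7 neutrophil genes -2.58 (-4.85 to -4.41) and of 7 red cell genes -0.14 (-5.81 to -3.40). On 24 h replicate 3 they were 3.96 (3.63 to 3.78), -3.26 (-2.82 to -1.78), -2.94 (-4.96 to -4.08) and -1.32 (-3.51 to -2.71). The part of these shifts in the members' values was not tested. With both replicates 3 left out, an alternative chosen after seeing the data, 6 members fell from 24 to 48 h in miR-155-/- kidney. Gclc was there called higher at 24 h (0.55, limma, adjusted p = 0.0158). No call of a member was lost in the comparisons that hold the miR-155-/- 24 or 48 h group, and the others were not examined.

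**Figure D1:**
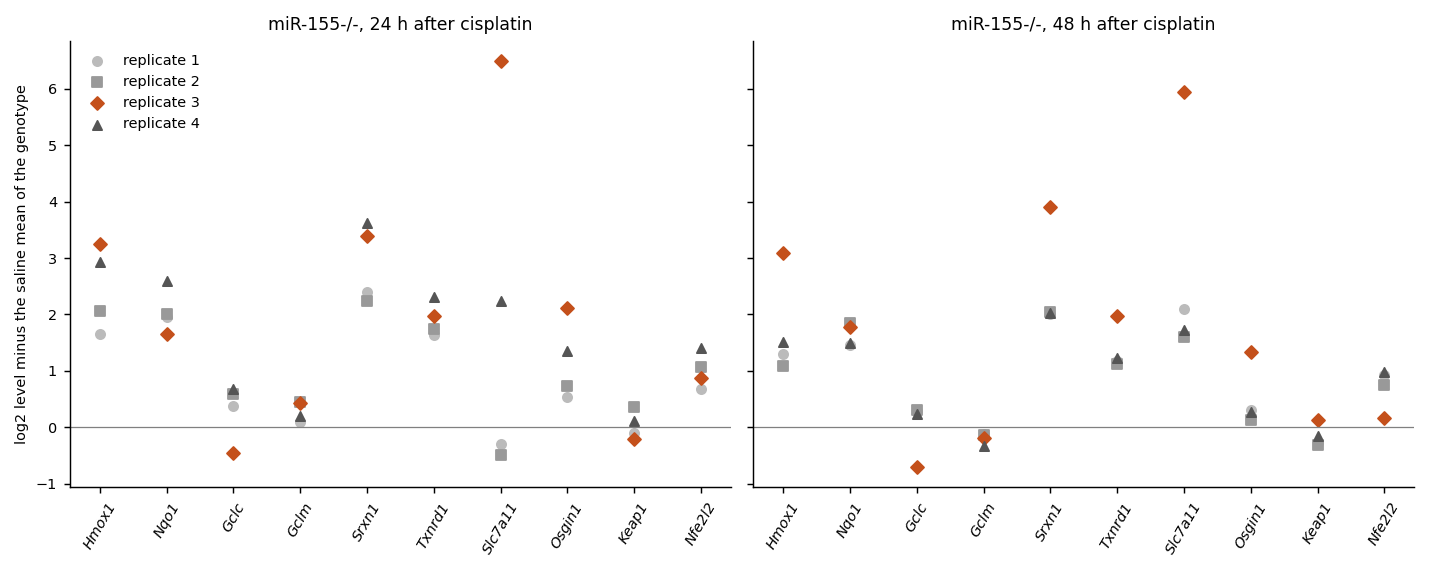
Log2 level minus the mean of the miR-155-/- saline arrays for the 10 genes on the 4 arrays at 24 h (left) and 48 h (right) after cisplatin, replicate 3 in orange and the other replicates in grey (replicate 4 as dark triangles). At 48 h replicate 3 stands above its fellows for Hmox1, Srxn1, Txnrd1, Slc7a11, Osgin1 and Keap1 and below them for Gclc and Nfe2l2.

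Cisplatin was followed by a rise of most of these genes in both genotypes, at every time, and no member was called lower against saline. In wild type kidney 8 of the 10 rose at 24 h, where 21.0% of all 23743 genes tested were called higher and 17.6% lower. At 48 h 7 of 10 rose (background 12.2% higher, 11.6% lower) and at 72 h 7 of 10 (12.5% higher, 12.8% lower). In kidneys without miR-155 7 of 10 rose at 24 h (26.6% higher, 22.5% lower), 6 of 10 at 48 h (22.7% higher, 21.1% lower) and 6 of 10 at 72 h (17.7% higher, 17.5% lower). Slc7a11 passed the filter on dim probes only through the miR-155-/- 72 h group, and without it the counts in miR-155-/- kidney were 7, 5 and 5 of 9, and those in wild type 8, 7 and 7 of 9. The share of these 9 genes called higher was above the background share in each of the 6 comparisons. The 3 comparisons of a genotype share its 4 saline animals and are therefore not independent of each other.

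The median log2 difference of the 10 genes from saline was 1.11, 0.77 and 1.08 at 24, 48 and 72 h in wild type and 1.55, 1.04 and 1.27 in miR-155-/- kidney. The medians of all genes tested lay between -0.05 and 0.07. Without Slc7a11 the medians of the other 9 genes were 1.20, 0.83 and 0.99 in wild type and 1.18, 0.71 and 1.05 in miR-155-/- kidney. Hmox1, Nqo1, Srxn1, Txnrd1 and Nfe2l2 rose in 6 of 6 comparisons with saline, Osgin1 in 4, Gclc in 3 and Gclm and Slc7a11 in 2 each. Keap1 rose in none.

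**Figure D2:**
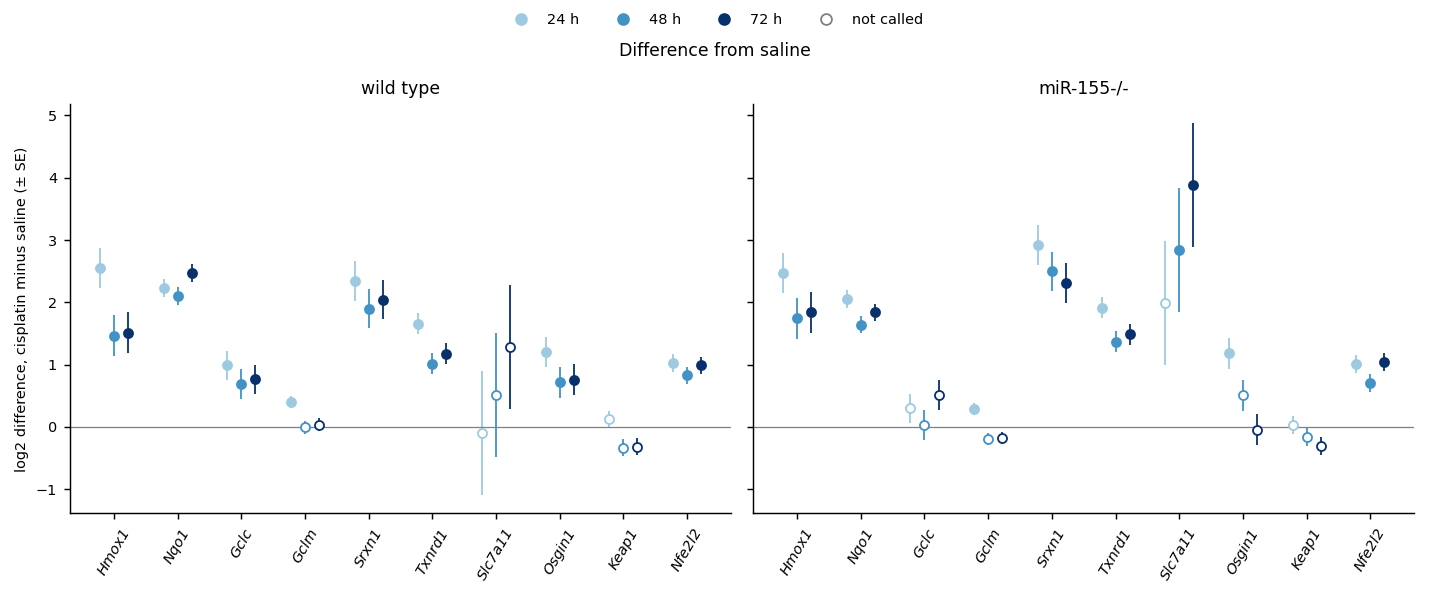
Log2 difference from saline (cisplatin minus saline, ± standard error) for the 10 genes at 24, 48 and 72 h, wild type on the left and miR-155-/- on the right, with filled points called by limma. Nqo1, Hmox1, Srxn1, Txnrd1 and Nfe2l2 are filled at all 3 times in each genotype, and Keap1 is open throughout. Slc7a11 was near the lower limit of the arrays, so its points are no measure of size.

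Nfe2l2, the gene of Nrf2 itself, rose in both genotypes at each time. Its levels on the 4 wild type saline arrays were 2.42, 2.37, 2.57 and 2.55, and on the miR-155-/- saline arrays 2.47, 2.52, 2.52 and 2.48. In wild type they were 3.42, 3.70, 3.34 and 3.56 at 24 h, 3.27, 3.55, 3.22 and 3.18 at 48 h and 3.23, 3.62, 3.41 and 3.60 at 72 h. In miR-155-/- kidney they were 3.18, 3.56, 3.36 and 3.91 at 24 h, 3.43, 3.25, 2.66 and 3.48 at 48 h and 3.52, 3.49, 3.68 and 3.49 at 72 h. All 24 treated arrays stood above all 8 saline arrays, and the lowest treated array was miR-155-/- 48 h replicate 3. The log2 differences from saline were 1.03, 0.83 and 0.99 in wild type and 1.01, 0.71 and 1.05 in miR-155-/- kidney (each ± 0.14, standard error; limma, largest adjusted p 0.000271). These are rises between 1.63-fold and 2.07-fold. The 6 treated means ran from 3.20 to 3.54, and no pair of neighbouring times of a genotype was called by limma.

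Keap1, which encodes the inhibitor, was called in no comparison with saline. Its mean level was 1.58 ± 0.22 (SD, n = 4) in wild type saline kidney and 1.71 ± 0.08, 1.25 ± 0.21 and 1.26 ± 0.13 at 24, 48 and 72 h. In the miR-155-/- animals it was 1.57 ± 0.18 on the 3 saline arrays with a value, and 1.60 ± 0.25, 1.41 ± 0.20 and 1.26 ± 0.21 after the drug. The groups overlapped with saline in all 6 comparisons, and the log2 differences ran from -0.34 to 0.13 with none called (limma, adjusted p 0.0749 or higher). Within wild type it fell by 0.46 ± 0.14 on the log2 scale from 24 to 48 h (limma, adjusted p = 0.0235), where the 4 arrays at 48 h (1.17, 0.98, 1.48 and 1.35) all lay below those at 24 h (1.64, 1.83, 1.66 and 1.71). With slide as a block it was called lower than saline at 48 h in wild type (-0.25, limma, adjusted p = 0.042) and at 48 and 72 h in miR-155-/- kidney (-0.24 and -0.27, adjusted p = 0.0444 and 0.0282). Without wild type saline replicate 2 it was called lower at 48 and 72 h in wild type (-0.44 and -0.42; limma, adjusted p = 0.0282 and 0.0328), and without 48 h replicate 3 at 48 h (-0.41; 0.0378). With only the groups compared it was called lower at 72 h in wild type (-0.32; limma, adjusted p = 0.0448).

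Hmox1, haem oxygenase, which opens the haem ring, rose most at 24 h. The saline levels were 0.90, 0.95, 1.23 and 0.91 in wild type and 1.65, 1.32, 1.51 and 1.55 in miR-155-/- kidney. In wild type the arrays read 3.56, 3.86, 3.1 and 3.68 at 24 h, 2.85, 2.72, 1.90 and 2.37 at 48 h and 1.91, 2.54, 2.66 and 2.92 at 72 h. In kidneys without miR-155 they read 3.17, 3.57, 4.75 and 4.43 at 24 h, 2.81, 2.59, 4.59 and 3.02 at 48 h and 3.40, 3.38, 3.63 and 3.0 at 72 h. Every treated array was above every saline array of its genotype, and replicate 3 of the miR-155-/- 48 h group stood well above the other 3. Hmox1 rose 5.86-fold, 2.76-fold and 2.85-fold in wild type at 24, 48 and 72 h (log2 2.55, 1.46 and 1.51, each ± 0.33; limma, adjusted p = 5.82e-07, 0.00142 and 0.000921). In miR-155-/- kidney it rose 5.55-fold, 3.35-fold and 3.59-fold (log2 2.47, 1.75 and 1.84; limma, adjusted p = 9.06e-07, 0.000114 and 6.02e-05). The dimmer of its 2 probes gave differences of 2.43, 1.40 and 1.40 in wild type and 2.35, 1.69 and 1.61 in miR-155-/- kidney.

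**Figure D3:**
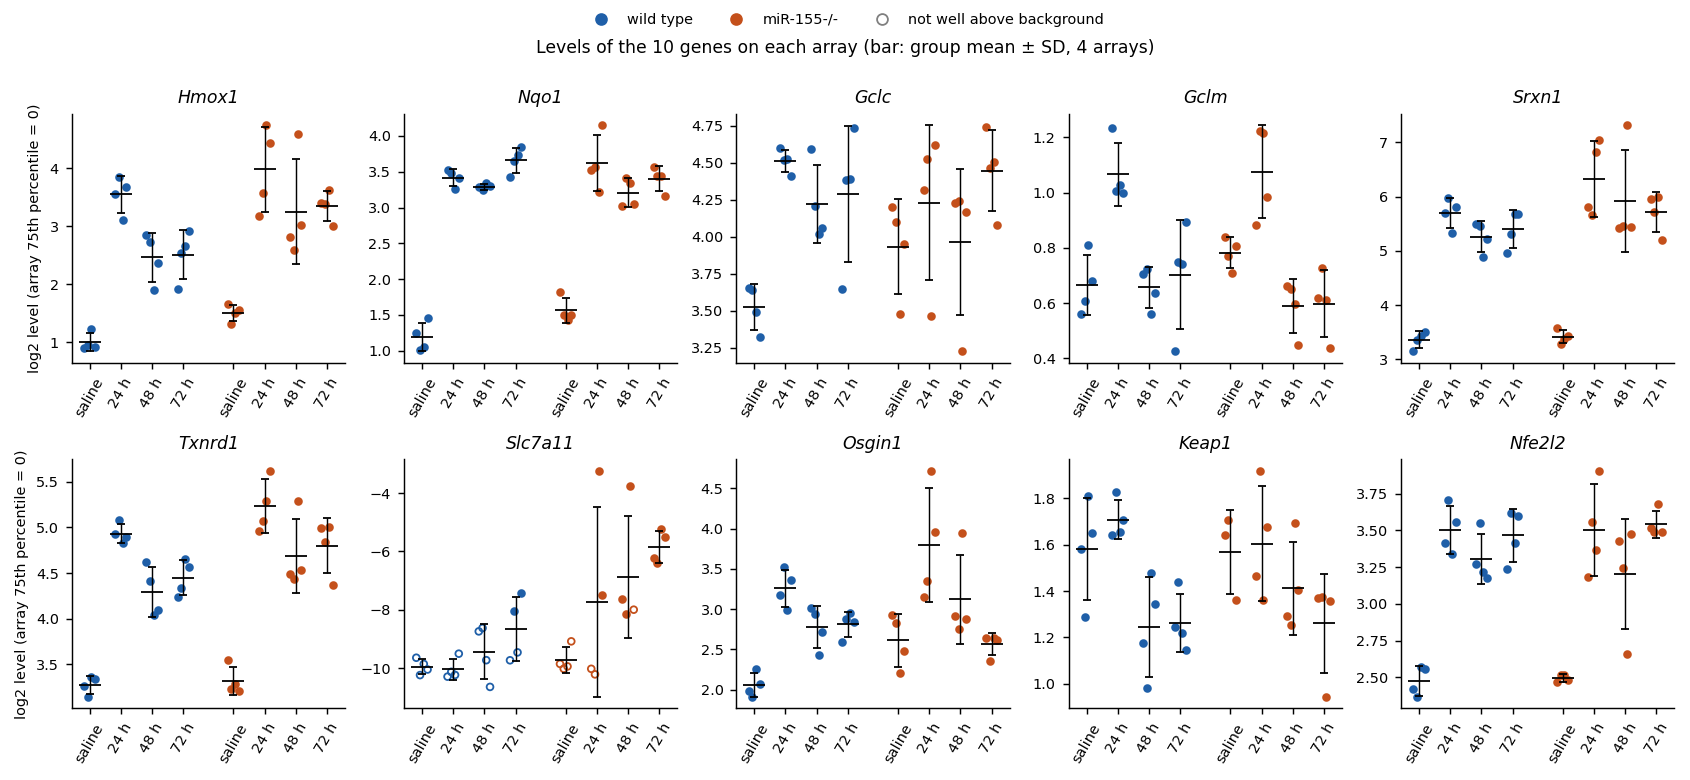
Log2 level (75th percentile of the array = 0) of each of the 10 genes on each of the 32 arrays, by genotype and time, with bars for the group mean ± SD (4 arrays, 3 for Keap1 in miR-155-/- saline) and open circles where the probe was not well above background. For Nqo1, Srxn1, Txnrd1 and Nfe2l2 all treated arrays lie above all saline arrays, and for Slc7a11 nearly all wild type arrays are open.

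Nqo1, a quinone reductase that is a standard readout of Nrf2 activity, rose and stayed high. The wild type saline arrays read 1.25, 1.02, 1.06 and 1.46 and the miR-155-/- saline arrays 1.83, 1.5, 1.42 and 1.51. Wild type arrays read 3.52, 3.48, 3.26 and 3.41 at 24 h, 3.28, 3.24, 3.34 and 3.30 at 48 h and 3.42, 3.65, 3.73 and 3.84 at 72 h. The miR-155-/- arrays read 3.52, 3.57, 3.22 and 4.15 at 24 h, 3.03, 3.41, 3.34 and 3.05 at 48 h and 3.57, 3.45, 3.43 and 3.16 at 72 h. The 24 treated arrays, from 3.03 to 4.15, did not overlap the 8 saline arrays. Nqo1 rose 4.67-fold, 4.28-fold and 5.53-fold in wild type (log2 2.22, 2.10 and 2.47, each ± 0.14) and 4.15-fold, 3.12-fold and 3.57-fold in miR-155-/- kidney (log2 2.05, 1.64 and 1.84). The largest of these 6 adjusted p-values in limma was 9.87e-10, and no pair of neighbouring times was called (limma, adjusted p between 0.109 and 0.654), though the wild type arrays at 72 h all lay above those at 48 h.

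The glutathione genes moved less. Gclc encodes the catalytic and Gclm the modifier subunit of glutamate-cysteine ligase, the first enzyme of glutathione synthesis, and Slc7a11 the transporter xCT that brings in cystine for it. Gclc levels in wild type were 3.65, 3.64, 3.49 and 3.32 with saline, 4.6, 4.52, 4.53 and 4.41 at 24 h, 4.59, 4.21, 4.02 and 4.06 at 48 h and 3.64, 4.38, 4.39 and 4.74 at 72 h. Treated and saline arrays did not overlap at 24 and 48 h and overlapped through replicate 1 at 72 h. Gclc rose by 0.99, 0.69 and 0.76 on the log2 scale (each ± 0.24; limma, adjusted p = 0.00156, 0.0329 and 0.0177). The 48 and 72 h calls were lost with slide as a block (limma, adjusted p = 0.0799 and 0.0917) and under another background correction (0.118 and 0.0785). They were also lost when 1 of 4 arrays (saline replicates 3 and 4, 48 h replicates 1 and 2; limma, adjusted p from 0.0654 to 0.123) or 1 of 2 (saline replicate 4, 72 h replicate 4; 0.0566 and 0.0849) was left out.

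In the miR-155-/- animals Gclc was not called at any time. Its levels were 4.20, 4.10, 3.48 and 3.95 with saline, 4.32, 4.52, 3.47 and 4.62 at 24 h, 4.23, 4.24, 3.23 and 4.17 at 48 h and 4.74, 4.46, 4.51 and 4.08 at 72 h. The lowest array of the 24 h and of the 48 h group stood apart from its fellows, and treated and saline arrays overlapped at each time. The differences were 0.30, 0.03 and 0.51 (limma, adjusted p = 0.315, 0.922 and 0.0944), and without the 24 h replicate 3 the 24 h difference was 0.55 (adjusted p = 0.047). With only the groups compared the 72 h difference was called (limma, adjusted p = 0.0398). The difference of the Gclc response between genotypes was -0.69 ± 0.34 at 24 h and -0.66 ± 0.34 at 48 h, which was not called (limma, adjusted p = 0.94 and 0.659).

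Gclm rose at 24 h and was not called against saline at 48 or 72 h. Wild type levels were 0.56, 0.61, 0.81 and 0.68 with saline and 1.23, 1.01, 1.03 and 1.0 at 24 h, against 0.84, 0.77, 0.71 and 0.81 and then 0.88, 1.22, 1.21 and 0.99 in miR-155-/- kidney. The 24 h arrays lay above the saline arrays of their genotype without overlap, by 0.40 ± 0.10 in wild type and 0.29 ± 0.10 in miR-155-/- kidney (1.32-fold and 1.23-fold; limma, adjusted p = 0.00174 and 0.0139). From 24 to 48 h Gclm fell by 0.41 ± 0.10 in wild type (limma, adjusted p = 0.00523) and by 0.49 ± 0.10 in miR-155-/- kidney (adjusted p = 0.00469). At 48 and 72 h its difference from saline lay between -0.19 and 0.04, and the miR-155-/- arrays at 48 h all lay below the saline arrays. The miR-155-/- call at 24 h was lost without replicate 2 or replicate 3 of that group (limma, adjusted p = 0.0527 and 0.0503) and with only the groups compared (0.081). With only the groups compared the fall from 24 to 48 h in miR-155-/- kidney was not called either (0.654).

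Slc7a11 was near the lower limit of detection. Its probe was well above background on 0 of 4 arrays in wild type saline, 24 h and 48 h and in miR-155-/- saline kidney, on 2 of 4 in wild type at 72 h, and on 2, 3 and 4 of 4 in miR-155-/- kidney at 24, 48 and 72 h. In kidneys without miR-155 its levels were -9.86, -10.03, -9.94 and -9.09 with saline, -10.03, -10.22, -3.23 and -7.50 at 24 h, -7.62, -8.13, -3.77 and -8.00 at 48 h and -6.21, -6.42, -5.24 and -5.51 at 72 h. Wild type levels ranged from -10.65 to -7.44 over all 4 groups. Replicate 3 of the 24 h and of the 48 h group were the highest of all 32 arrays, and all 4 animals of the 48 h and of the 72 h group stood above saline. A group not above background has only an upper bound. It was taken per array as the lowest signal among probes well above background, or the probe's own reading where that was higher. In the main processing a fold is therefore a lower limit where the brighter group was well above background on all its arrays. Slc7a11 was at least 3.69-fold higher than saline in miR-155-/- kidney at 72 h, which is a description, since the gene entered the tests through that group. At 48 h the same working gave 1.80-fold (limma, adjusted p = 0.0219, and 0.155 without replicate 3). That is no true lower limit, since only 3 of the 4 arrays were well above background. It also leans on replicate 3: the group mean was -6.88, and that of the other 3 arrays -7.92. At 24 h Slc7a11 was not called (limma, adjusted p = 0.101). It was called without replicate 1 or 2 of that group (0.0268 and 0.0227) or with slide as a block (0.0155). With another background correction neither the 48 h nor the 72 h difference was called (limma, adjusted p = 0.549 and 0.561). The differences were then 0.77 and 0.89 on the log2 scale, below the values of 0.85 and 1.88 worked out in the main processing. These values therefore depend on the background correction. In wild type it was not called at any time (limma, adjusted p = 0.952, 0.769 and 0.381).

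The thioredoxin genes rose clearly. Srxn1, sulfiredoxin, repairs overoxidised peroxiredoxins, and Txnrd1, the cytosolic thioredoxin reductase, recharges thioredoxin with NADPH. Srxn1 levels in wild type were 3.15, 3.36, 3.44 and 3.51 with saline, 5.71, 5.98, 5.33 and 5.81 at 24 h, 5.50, 5.46, 4.88 and 5.22 at 48 h and 4.96, 5.31, 5.69 and 5.68 at 72 h. In miR-155-/- kidney they were 3.57, 3.29, 3.37 and 3.43 with saline, 5.81, 5.66, 6.82 and 7.05 at 24 h, 5.43, 5.46, 7.33 and 5.44 at 48 h and 5.97, 5.72, 6.00 and 5.21 at 72 h. No treated array came near the saline range, and the miR-155-/- 48 h replicate 3 stood apart from its 3 fellows, which lay between 5.43 and 5.46. Srxn1 rose 5.07-fold, 3.74-fold and 4.12-fold in wild type (log2 2.34, 1.90 and 2.04, each ± 0.32; limma, adjusted p = 1.28e-06, 4.89e-05 and 1.53e-05). In the miR-155-/- animals it rose 7.55-fold, 5.65-fold and 4.95-fold (log2 2.92, 2.50 and 2.31; limma, adjusted p = 3.78e-08, 5.3e-07 and 1.67e-06).

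Txnrd1 levels in wild type were 3.26, 3.14, 3.36 and 3.34 with saline, 4.93, 5.08, 4.83 and 4.89 at 24 h, 4.62, 4.42, 4.04 and 4.10 at 48 h and 4.24, 4.34, 4.65 and 4.57 at 72 h. In kidneys without miR-155 they were 3.55, 3.23, 3.28 and 3.21 with saline, 4.96, 5.07, 5.29 and 5.62 at 24 h, 4.50, 4.43, 5.29 and 4.54 at 48 h and 5.0, 4.84, 5.0 and 4.37 at 72 h. The lowest treated array, at 4.04, was above the highest saline array, at 3.55. Txnrd1 rose 3.15-fold, 2.02-fold and 2.26-fold in wild type (log2 1.66, 1.02 and 1.17, each ± 0.17) and 3.77-fold, 2.59-fold and 2.80-fold in miR-155-/- kidney (log2 1.92, 1.37 and 1.48). The largest of the 6 adjusted p-values in limma was 4.68e-05.

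Osgin1, an oxidative stress-induced growth inhibitor, rose at all 3 times in wild type and at 24 h alone in miR-155-/- kidney. Wild type levels were 1.98, 1.91, 2.26 and 2.07 with saline, 3.17, 3.52, 2.98 and 3.36 at 24 h, 3.02, 2.94, 2.43 and 2.72 at 48 h and 2.59, 2.87, 2.95 and 2.84 at 72 h. In miR-155-/- kidney they were 2.93, 2.83, 2.20 and 2.48 with saline, 3.15, 3.35, 4.72 and 3.96 at 24 h, 2.92, 2.75, 3.94 and 2.88 at 48 h and 2.64, 2.36, 2.64 and 2.61 at 72 h. The treated wild type arrays did not overlap saline, while the miR-155-/- arrays overlapped saline at 48 and 72 h. The differences were 1.20, 0.72 and 0.76 in wild type (each ± 0.25; limma, adjusted p = 0.000334, 0.0339 and 0.0245) and 1.18, 0.51 and -0.05 in miR-155-/- kidney (adjusted p = 0.000296, 0.0971 and 0.908). The wild type calls at 48 and 72 h were lost without saline replicate 1 (limma, adjusted p = 0.0723 and 0.0555) or 2 (0.078 and 0.0588). At 48 h that also held without saline replicate 4 (0.0622) or 48 h replicate 1, 2 or 4 (0.1, 0.0925 and 0.0543), and at 72 h without 72 h replicate 2, 3 or 4 (0.0528, 0.067 and 0.0522). With slide as a block the 48 h difference in miR-155-/- kidney was 0.80 and called (limma, adjusted p = 0.00772).

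Several members fell between 24 and 48 h, and none was called between 48 and 72 h. From 24 to 48 h 4 of the 10 genes fell in wild type kidney, where 7.22% of all genes tested were called lower: Hmox1 by 1.09 ± 0.33 on the log2 scale, Txnrd1 by 0.64 ± 0.17, Keap1 by 0.46 and Gclm by 0.41 (limma, adjusted p = 0.0261, 0.0111, 0.0235 and 0.00523). Their 4 arrays at 48 h all lay below the 4 at 24 h. The Hmox1 call was lost without 24 h replicate 1, 2 or 4 or 48 h replicate 3 or 4 (limma, adjusted p from 0.0518 to 0.105). The Keap1 call was lost without 24 h replicate 2 or 4 or 48 h replicate 1 or 2 (0.0544 to 0.0943). In the miR-155-/- animals Gclm was the 1 member that fell, against 2.0% of genes called lower. Without 48 h replicate 3 the count in miR-155-/- kidney was 6 of 10, with Hmox1 at -1.17, Srxn1 at -0.89, Osgin1 at -0.95, Txnrd1 at -0.74 and Nqo1 at -0.45 beside Gclm. It was 3 without 24 h replicate 1 and 2 without 24 h replicate 3. From 48 to 72 h 0 of 10 were called by limma in wild type (1 at an unadjusted p under 0.05, beside 1924 of 23743 genes; 0.872% of genes called) and 0 of 10 in miR-155-/- kidney (2 at an unadjusted p under 0.05, beside 5276 of 23743 genes; 6.25% of genes called). The groups did not overlap for 1 member in wild type (Nqo1) and 2 in miR-155-/- kidney (Osgin1 and Nfe2l2). The share of all genes without overlap was not counted, so these counts cannot be set against a background. The comparison of 48 with 24 h shares its 48 h arrays with that of 72 with 48 h.

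Between the genotypes no member was called at any time. They were compared in the saline groups, where 0.114% of all genes were called, at 24 h (0.0800%), at 48 h (0.101%) and at 72 h (0.720%), and 0 of the 10 genes were called in each by limma. At an unadjusted p under 0.05 there were 2, 2, 3 and 3 of 10, beside 789, 2210, 3598 and 2579 of all 23743 genes. Hmox1, Srxn1 and Txnrd1 had the higher mean in miR-155-/- kidney at 4 of 4 times, but with slide as a block the saline difference was -0.08 for Srxn1 and -0.02 for Txnrd1, and its sign also turned without wild type saline replicate 1 (Srxn1) or 2 (Txnrd1) or without miR-155-/- saline replicate 1 (either gene). For Hmox1 the differences were 0.51, 0.43, 0.79 and 0.84 with saline and at 24, 48 and 72 h (each ± 0.33; limma, adjusted p = 1, 0.635, 0.312 and 0.284), and the 4 arrays of each genotype did not overlap in the saline groups and at 72 h. For Txnrd1 they were 0.04, 0.30, 0.40 and 0.35 (± 0.17) and for Srxn1 0.05, 0.63, 0.65 and 0.31 (± 0.32), with overlap at each time. On leaving out 1 array the 48 h difference ran from 0.34 to 1.01 for Hmox1. It ran from 0.20 to 0.50 for Txnrd1 and from 0.18 to 0.81 for Srxn1. Replicate 3 of the miR-155-/- 48 h group was the highest of its group for each of these genes. The lowest adjusted p of the 9 members other than Slc7a11 was 0.284 in limma, that of Hmox1 at 72 h. For Slc7a11 the miR-155-/- arrays at 72 h were all above the wild type arrays, of which 2 of 4 were well above background, in a comparison that holds the group through which it passed the filter. A p that misses the threshold does not show that the genotypes were alike.

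The difference between genotypes of the response to cisplatin was not called for any of the 10 genes at 24, 48 or 72 h (0 of 10 each in limma; 0, 1 and 2 at an unadjusted p under 0.05). Over all genes 0%, 0% and 0.211% were called, while 785, 1702 and 1797 of 23743 had an unadjusted p under 0.05. The differences nearest the threshold were those of Nqo1 at 72 h, -0.63 ± 0.20 (limma, adjusted p = 0.262), and Osgin1 at 72 h, -0.80 ± 0.35 (adjusted p = 0.548). In each the rise over saline was larger in wild type. In a fit of these 4 groups alone the Osgin1 difference was called (limma, adjusted p = 0.0394). For Osgin1 the saline mean was 2.61 ± 0.33 in miR-155-/- and 2.06 ± 0.15 in wild type kidney. At 72 h the means were 2.56 ± 0.14 and 2.81 ± 0.16, so the difference of the response holds the gap between the saline groups. For Nqo1 the miR-155-/- saline mean was 1.56 ± 0.18 and the wild type saline mean 1.19 ± 0.20 (SD, n = 4), and the order was turned at 72 h, with 3.40 ± 0.17 against 3.66 ± 0.18.

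**Figure D4:**
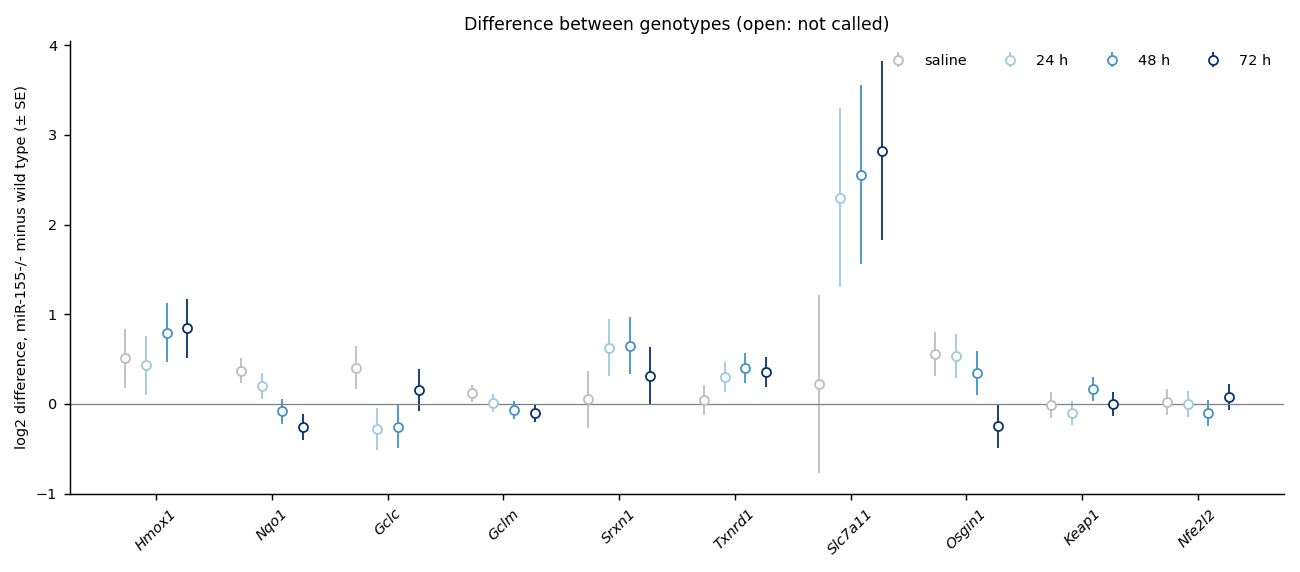
Log2 difference between genotypes (miR-155-/- minus wild type, ± standard error) for the 10 genes with saline and at 24, 48 and 72 h. All points are open because none was called, and those of Hmox1 lie above 0 at each time. Slc7a11 was not well above background on any saline array, so its points are no measure of size.

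The wider pathway was described with 72 more genes in 7 lists, all measured. In wild type 27 rose and 12 fell at 24 h, 23 and 10 at 48 h and 27 and 11 at 72 h, and in miR-155-/- kidney 29 and 10, 31 and 13, and 32 and 17 (limma). Over all genes, 12.2 to 26.6% were called higher and 11.6 to 22.5% lower in these comparisons. Their median difference from saline was between 0.11 and 0.22, below that of the 10 members. The largest shares called higher were those of quinone and carbonyl metabolism and of NADPH supply.

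Of 10 genes of quinone and carbonyl metabolism 6, 8 and 8 rose in wild type and 6, 7 and 8 in miR-155-/- kidney at 24, 48 and 72 h, and none fell (limma). Cbr3, a carbonyl reductase, rose by 3.56, 4.07 and 4.85 on the log2 scale in wild type and 4.04, 3.57 and 4.57 in miR-155-/- kidney (each ± 0.23). That is 11.8-fold to 28.9-fold. Ephx1, microsomal epoxide hydrolase, rose by 2.09, 3.11 and 3.43 and by 1.73, 2.32 and 3.02 (± 0.32), Akr1b8, an aldo-keto reductase, by 1.96, 2.42 and 1.88 and by 2.96, 3.54 and 3.28 (± 0.42), and Cbr1 by 1.40, 2.29 and 2.82 and by 1.45, 1.63 and 2.66 (± 0.25).

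Of 6 genes of NADPH supply 4 rose and 1 fell in each of the 6 comparisons. Pgd, an enzyme of the pentose phosphate pathway, rose by 1.71, 1.18 and 1.21 in wild type and 1.86, 1.30 and 1.13 in miR-155-/- kidney (± 0.18), and G6pdx, which opens that pathway, by 1.52, 0.88 and 0.79 and by 1.68, 1.36 and 1.11. Me1, malic enzyme, was the member that fell, by 0.87, 0.69 and 0.74 in wild type and 0.82, 1.09 and 1.16 in miR-155-/- kidney.

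**Figure D5:**
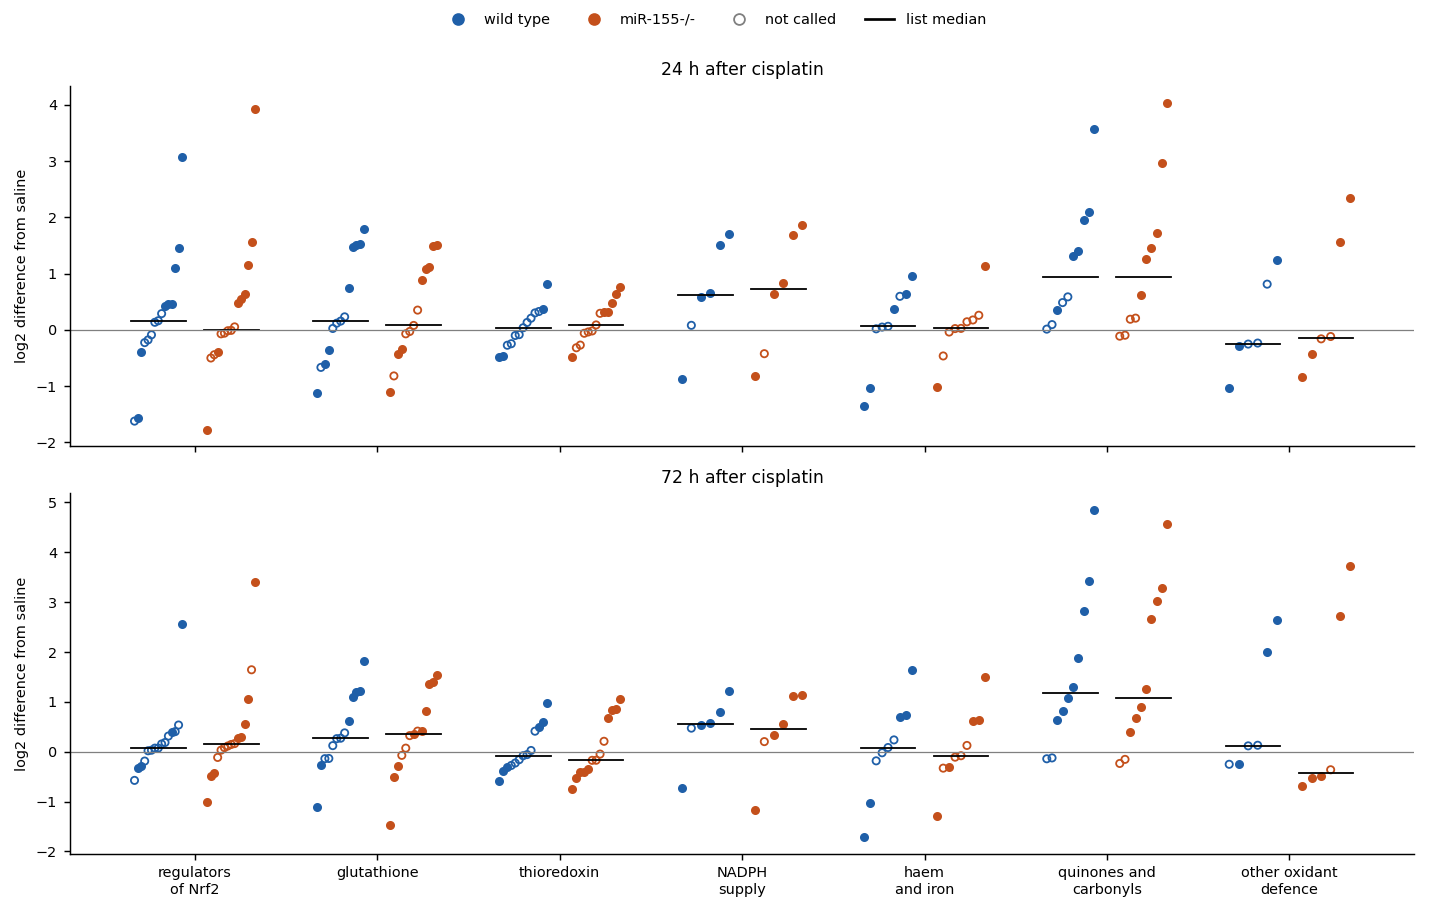
Log2 difference from saline for 72 further genes of the pathway in 7 lists at 24 h (top) and 72 h (bottom), wild type in blue and miR-155-/- in orange, filled where called by limma and with a bar at the list median. The medians of NADPH supply and of quinone and carbonyl metabolism are the highest, and each list holds genes on either side of 0.

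Of 13 genes of glutathione synthesis and use 3 to 6 rose and 2 or 3 fell in each comparison. Mgst1, a membrane glutathione transferase, rose by 1.79, 1.60 and 1.82 in wild type and 1.51, 1.36 and 1.54 in miR-155-/- kidney, and Abcc2, an exporter of glutathione conjugates, by 1.47, 1.22 and 1.09 and by 1.08, 1.0 and 0.82. Ggt1, the brush border enzyme that splits extracellular glutathione, fell by 1.12, 1.17 and 1.11 and by 1.11, 1.28 and 1.48. Slc3a2, the heavy chain that pairs with the Slc7a11 product, rose at 24 h in wild type (1.53) and miR-155-/- kidney (1.48) and was not called at 72 h (0.38 and 0.32).

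Of 13 further genes of the thioredoxin system 2 to 5 rose and 1 to 5 fell, near the background shares, with list medians from -0.17 to 0.09. Txn1, thioredoxin itself, rose by 0.37 in wild type and 0.49 in miR-155-/- kidney at 24 h. Sesn2, a sestrin, rose by 0.82 and 0.76 at the same time, and Txnip, the thioredoxin inhibitor, by 0.98 and 1.06 at 72 h. Txn2, the mitochondrial form, fell by 0.39 and 0.52 at 72 h.

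Of 9 genes of haem and iron handling 1 to 3 rose and 1 or 2 fell, also near the background, with medians from -0.08 to 0.08. Blvrb, a biliverdin reductase, rose by 0.96, 1.47 and 1.64 in wild type and 1.13, 1.44 and 1.5 in miR-155-/- kidney. Hpx, the haem carrier haemopexin, fell by 1.03, 1.45 and 1.72 in wild type and 1.02, 0.99 and 1.29 in miR-155-/- kidney. Its saline arrays were scattered, from -5.23 to -2.76 in wild type and -4.79 to -2.71 in miR-155-/- kidney. The wild type 24 h arrays, -5.36 to -4.61, overlapped with saline. The transferrin receptor Tfrc fell by 1.35, 1.24 and 1.03 in wild type and was not called in miR-155-/- kidney (-0.46, -0.48 and -0.33). In the test of the difference between genotypes no gene of this list was called. Red cell markers moved with these genes: 6 of 6 tested fell at 48 and 72 h in wild type and at 72 h in miR-155-/- kidney, and their part in the haem genes was not tested.

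Among 15 regulators of Nrf2, 2 to 6 rose and 2 or 3 fell, and the 2 that rose at 48 and at 72 h in wild type are a share near the background of 12.2 and 12.5%. Maff, a small Maf protein that pairs with Nrf2, rose by 3.08, 2.50 and 2.57 in wild type and 3.93, 3.71 and 3.41 in miR-155-/- kidney (each ± 0.44; 5.65-fold to 15.2-fold). Mafk rose at 24 h in wild type (1.10) and at 24, 48 and 72 h in miR-155-/- kidney (1.56, 1.77 and 1.06). Sqstm1, the autophagy adaptor p62 that binds Keap1, rose by 1.45 and 1.16 at 24 h, and Dcaf11, a ligase adaptor for Nrf2, fell in all 6 comparisons by 0.32 to 0.44. Btrc, the adaptor of the other ligase that destroys Nrf2, fell by 1.57 and 1.78 at 24 h. Bach1, the repressor that occupies the same elements and a known target of miR-155, rose in wild type at 72 h (0.40 ± 0.14; adjusted p = 0.0393) and was called in no comparison of the genotypes, where its differences with saline and at 24, 48 and 72 h were 0.08, 0.11, -0.38 and -0.21 (limma, lowest adjusted p 0.308).

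The list of oxidant defence outside the pathway held the 1 gene of the 72 that was called between genotypes. Over all genes 0.720% were called between genotypes at 72 h and 0.211% in the difference of the response, so 1 of 72 is no result about the lists. Cat, catalase, was at 2.78 ± 0.12 in wild type and 2.22 ± 0.11 in miR-155-/- kidney at 72 h (SD, n = 4), with ranges of 2.71 to 2.96 and 2.10 to 2.34 that did not overlap. The difference was -0.56 ± 0.12 (limma, adjusted p = 0.0239), and that of the response from saline -0.80 ± 0.17 (adjusted p = 0.0435). With saline the order was the other way, 2.66 ± 0.06 in wild type and 2.91 ± 0.12 in miR-155-/- kidney. Those ranges, 2.58 to 2.73 and 2.74 to 3.02, did not overlap, and this gap is part of the difference of the response. Alternative settings were run for the members alone, so none is given for Cat. In miR-155-/- kidney Cat fell by 0.43, 0.73 and 0.68 at 24, 48 and 72 h, while in wild type the differences from saline were -0.23, -0.27 and 0.12 and were not called. The metallothionein gene Mt2, which binds metals, rose by 1.23, 1.80 and 2.64 in wild type and 2.34, 3.13 and 3.74 in miR-155-/- kidney.

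The genes whose levels ran most like each member over the 32 arrays were described by Pearson's r, which in these arrays reflects the division into saline and treated animals that all of them share. Srxn1 ran with Maff (r = 0.984), Nqo1 with Mgst1 and Mirt2 (0.974 each), and Txnrd1 with Plin2 (0.974) and Tnfrsf12a (0.973). Hmox1 ran with Crem (0.971) and Pgd (0.957), Nfe2l2 with Pkp2 (0.947) and Armc12 (0.926), and Osgin1 with Rnf113a2 (0.937) and Polr1c (0.929). Slc7a11 ran with Runx1 (0.928) and Mall (0.914), Keap1 with C330007P06Rik (0.889) and Hnrnpk (0.879), Gclc with Ddr1 (0.832) and Bmp4 (0.807) and Gclm with Zfyve16 (0.823) and Cmc4 (0.811).

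Arrays were run 4 to a slide on 8 slides, and groups were spread over them. Where a slide held saline and treated arrays of a genotype, the members called in all 6 comparisons kept their direction within it. On slide 6 wild type at 24 h stood above saline by 2.96 for Hmox1, 2.23 for Nqo1, 2.83 for Srxn1, 1.82 for Txnrd1 and 1.29 for Nfe2l2. On slides 2 and 4 the 48 h differences in wild type were 0.99 and 1.77 for Hmox1, 1.89 and 2.23 for Nqo1, 1.37 and 2.10 for Srxn1, 0.70 and 1.27 for Txnrd1 and 0.66 and 1.18 for Nfe2l2. In the miR-155-/- animals slides 4 and 6 gave 3.20 and 2.78 for Hmox1 and 1.71 and 2.33 for Nqo1 at 24 h, slide 1 gave 3.27 and 1.84 at 48 h through replicate 3, and slides 1 and 3 gave 1.68 and 2.12 and 1.66 and 2.01 at 72 h. No slide held both wild type saline and wild type 72 h arrays. Between genotypes, the Hmox1 difference within slides ran from 0.09 to 0.75 in the saline groups, was 0.58 at 24 h, and ran from 0.22 to 1.12 at 48 h and from 0.70 to 1.46 at 72 h.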

How the data were processed

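Total RNA of whole kidney from 32 mice was measured on 1-colour Agilent arrays, with Feature Extraction 10.7.3.1 and protocol GE1_107_Sep09, per the file headers. The deposited scanner intensity values are background-subtracted processed signals that the authors had not scaled between arrays, per the file headers. The deposited value table held the same intensities times 1 factor per array (0.378 to 0.653; column medians 64.5 to 83.6). Here control spots and outlier spots (59 to 976 per array) were left out, log2 was taken and each array's 75th percentile (1531 to 2647) was subtracted, and spots of a probe were averaged. Between 68.8 and 82.2% of spots were well above background and 0 were saturated; the number of arrays limits the precision.

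Of 39429 probes, 27234 were named through RefSeq accessions. Each gene was represented by its brightest probe and tested if, in 1 or more groups, the 4 arrays all detected that probe above background, with at least 3 values in each group. Fits used limma 3.58.1 in R 4.3.3 on all 8 groups (24 residual degrees of freedom) with Benjamini-Hochberg adjustment over 23743 genes, and the code was tested on simulated data. Animals were independent, per the labels' protocols. Alternatives were another background correction (normexp, offset 50, on median signals), quantile normalization, the deposited table, no filter, the mean of probes, slide or replicate number as a block, only the groups compared, and leaving out each array. The members and gene lists were chosen with earlier results of these data known. Bach1, a known target of miR-155, was added by hand to the genes named by the rule that follows. Of the other pathway genes, the text names some of those that were among the up to 3 called genes per list with the smallest adjusted p in a comparison with saline, and every one called between genotypes; likeness was given for the 2 genes with the highest correlation, of which 1 is not reported here.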

Additional observations from a re-analysis of the deposited data

Results flagged for a closer look

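In 10 of 79 groups of 4 arrays the highest or lowest array of a member stood so far from the rest that its gap, as a share of the group's range, exceeded Dixon's critical value, and chance alone gives about 1 in 20. Of these, 5 belong to replicate 3 of the miR-155-/- 48 h group. There Srxn1 was at 7.33 (others 5.43 to 5.46), Txnrd1 at 5.29 (4.43 to 4.54), Osgin1 at 3.94 (2.75 to 2.92), Slc7a11 at -3.77 (-8.13 to -7.62) and Gclc at 3.23 (4.17 to 4.24).

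The other 5 lie in other groups. Hmox1 was at 1.23 on wild type saline replicate 3 (others 0.90 to 0.95), and Gclm at 1.23 on wild type 24 h replicate 1 (others 1.0 to 1.03). In the miR-155-/- 72 h group Osgin1 was at 2.36 on replicate 2 (2.61 to 2.64), Keap1 at 0.94 on replicate 3 (1.36 to 1.37) and Nfe2l2 at 3.68 on replicate 3 (3.49 to 3.52).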

How the results depend on the processing

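Of 170 results of members, 26 changed their call under any alternative, and no called value changed sign. With no filter or the replicate block all 170 kept their call. The same held with the deposited values and with the mean of probes, but these settings could test little. The deposited values differ from the processed signals by a constant factor per array, which subtracting the array's own percentile removes. Averaging probes alters the level of Hmox1 alone among the members, since each other member had 1 probe. Members that fell from 24 to 48 h in miR-155-/- kidney numbered 1, and 5 with normexp, 2 with quantile normalization, 0 with only the groups compared, 6 without 24 h and 48 h replicates 3, and 1 to 6 on leaving out 1 array. In wild type they numbered 2 to 4 on leaving out 1 array. With only the groups compared, 1 member was called between genotypes at 72 h (Slc7a11, which passed the filter through a group of that comparison) and 1 in the difference of the response at 72 h. From 48 to 72 h in miR-155-/- kidney 1 was called (Slc7a11) without both replicates 3, and 0 on leaving out 1 array. The cause was not tested.

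Over all genes normexp called 5223, 2961 and 3029 against saline in wild type (main 9180, 5657 and 6018) and 7129, 5164 and 4759 in miR-155-/- kidney (11663, 10396 and 8364). The difference of the response at 72 h was called for 50 genes, 4 with normexp, more with quantile normalization, 32 without the filter, 153 with slide as a block, 30 with the replicate block, 672 with only the groups compared and 12 to 160 on leaving out 1 array. Between genotypes 171 were called at 72 h, 63 with normexp, 259 with slide as a block, 853 with only the groups compared and 42 to 360 on leaving out 1 array. From 24 to 48 h in miR-155-/- kidney 955 were called, 2305 with normexp, 5 with only the groups compared and 357 to 5138 on leaving out 1 array. In wild type they were 3110, 1514 with normexp and 1762 to 3090 on leaving out 1 array. From 48 to 72 h 207 were called in wild type, 366 with only the groups compared and 62 to 256 on leaving out 1 array, and 1483 in miR-155-/- kidney, 354 with normexp, 16 with only the groups compared and 682 to 1805 on leaving out 1 array. Between genotypes 27 were called with saline (9 with normexp, 41 with quantile normalization, 17 with only the groups compared, 16 to 60 on leaving out 1 array), 19 at 24 h (5 with normexp, 12 with only the groups compared) and 24 at 48 h (71 with slide as a block, 1 with only the groups compared). With only the groups compared 9736 were called at 72 h against saline in wild type and 5806 at 48 h in miR-155-/- kidney. The difference of the response was called for 0 genes at 24 and 48 h, 2 and 4 with quantile normalization, and 6 at 48 h with slide as a block.

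Replicate numbers do not pair the animals. Over 112 pairs of arrays with the same number in different groups the mean correlation of deviations was -0.0046, and for pairs with other numbers 0.0022. Slc7a11 is limited by its signal over background.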
